A study of Homo sapiens with 2 samples.

Results

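The chromosome 19 miRNA cluster was represented by 49 of the 1273 human microRNA (miRNA) probes on the array, among 2661 probes with values in all. They were chosen by name alone, as every probe whose name holds miR-498, miR-512, any miRNA numbered from miR-515 to miR-527, miR-1283 or miR-1323, with both arms of each hairpin. The cells were H460, a human non-small cell lung cancer line, given sulforaphane or vehicle for 48 hours. Sulforaphane is an isothiocyanate from cruciferous vegetables that induces NRF2 target genes. Both cultures were grown in DMEM with fetal bovine serum. No sulforaphane dose is stated in the labels. Each group was measured on 1 one-colour miRCURY LNA array, so the spread between samples is unknown and differences between the groups are given without a test or p-value. The number of arrays limits the precision.

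The chromosome 19 cluster is a primate-specific group of miRNA genes that lie head to tail within repeated units rich in Alu elements. It is imprinted, transcribed from the paternal allele as a long RNA whose introns release the hairpins, and its products are abundant in placental trophoblast and in exosomes that trophoblast sheds. In most adult tissues it is silent, a state linked to DNA methylation upstream of the cluster, and it is active in embryonic stem cells and in some embryonal and germ cell tumours. Many of its 3p arms carry a seed (bases 2 to 8, which pair with targets) with the core of the miR-302, miR-371 to miR-373 and miR-17 families, which promote proliferation and pluripotency.

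The name of the cluster was checked against RefSeq. All 46 genes of these numbers lie on chromosome 19 in GRCh38.p14, and the 43 with a hairpin entry are all on the plus strand. No protein-coding gene and no other miRNA gene lies between the first and the last of them. The next miRNA genes along the chromosome are MIR371A, MIR371B, MIR372 and MIR373. The 49 probes name 59 miRNAs, since 7 probes name several near-identical ones. RefSeq gave a mature sequence under exactly the same name for 50 of the 59. The placental part of the description cannot be checked on arrays of a lung cancer line.

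A probe was called detected where its normalized intensity exceeded a floor, the 95th percentile of that array's 143 viral miRNA probes. The normalized intensity is the authors' value, a ratio of background-subtracted intensity to 1 factor per array. This floor was 5.52 on the sulforaphane array and 6.44 on the vehicle array. By that rule 4 of the 49 cluster probes were detected with sulforaphane, namely miR-498, miR-519e-3p, miR-519e-5p and miR-520d-5p. With vehicle 2 were detected, miR-498 and miR-519e-3p, and both of these were detected on both arrays. The other 45 cluster probes were under the floor on both arrays.

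The mature sequences of the 4 detected miRNAs and of miR-525-5p, which was just under the sulforaphane floor, are shown because members of this cluster differ by few bases. All but miR-498 are followed by a cluster miRNA with the same seed. The sequences are from RefSeq (GRCh38.p14), written 5′ to 3′, and capitals mark the seed. The probe for miR-498 carries no arm in its name, so both arms listed by RefSeq are given.
miR-498-5p: uUUCAAGCcagggggcguuuuuc
miR-498-3p: aAAGCACCuccagagcuugaagc
miR-519e-3p: aAGUGCCUccuuuuagaguguu
miR-515-3p: gAGUGCCUucuuuuggagcguu
miR-519e-5p: uUCUCCAAaagggagcacuuuc
miR-515-5p: uUCUCCAAaagaaagcacuuucug
miR-520d-5p: cUACAAAGggaagcccuuuc
miR-524-5p: cUACAAAGggaagcacuuucuc
miR-525-5p: cUCCAGAGggaugcacuuucu
miR-520a-5p: cUCCAGAGggaaguacuuucu

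The arms of miR-498 lie at chr19:53674230-53674252 and chr19:53674266-53674288, on the plus strand. Those of miR-519e lie at chr19:53679953-53679974 (5p) and chr19:53679991-53680012 (3p). miR-520d-5p lies at chr19:53720111-53720130 and miR-525-5p at chr19:53697547-53697567. In the order of the 46 genes along the cluster, MIR498 is number 4, MIR519E number 7, MIR525 number 15 and MIR520D number 27, so the detected members are not neighbours, apart from the arms of miR-519e.

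miR-498 had the highest normalized intensity of the 49 probes on both arrays. It read 16.0 with sulforaphane and 22.5 with vehicle (1978.5 and 2508.5 background-subtracted units). These values exceeded 97.9% of the viral probes on the sulforaphane array and 98.6% on the vehicle array. The highest viral probe, hsv1-miR-H4-3p, read 151 with sulforaphane and 108 with vehicle, so a probe can exceed the floor without its expected target. On both arrays miR-498 lay under that viral probe. It was 1.41-fold lower with sulforaphane, a log2 ratio of -0.50. The size rule used in place of a test was 2-fold, and miR-498 did not reach it on the authors' scale.

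miR-519e is the one hairpin of the cluster with both arms detected on an array. Its 3p arm, miR-519e-3p, read 7.79 with sulforaphane and 8.25 with vehicle (965.5 and 920 units), a log2 ratio of -0.08. Its 5p arm, miR-519e-5p, read 7.15 with sulforaphane and 5.24 with vehicle (887 and 584.5 units). The 3p arm was thus above the floor on both arrays, and the 5p arm on the sulforaphane array alone. Set against the vehicle floor, the 5p arm was at least 1.11-fold higher with sulforaphane on the authors' scale. Its measured log2 ratio was 0.45 on that scale, near the median of 0.38 for human miRNAs detected on both arrays, and -0.23 under scaling to the spike-in probes, where the bound no longer holds. The miR-519 members known for repressing ELAVL1 (HuR), an RNA-binding protein that stabilises growth-promoting mRNAs, are 3p arms with the seed AAGUGCA. Neither arm of miR-519e has that seed.

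miR-520d-5p was detected on the sulforaphane array alone, at 6.11 (758 units), against 3.48 (388.5 units) with vehicle. No bound on its fold can be given on the authors' scale, because its sulforaphane value was under the vehicle floor of 6.44. The normalized floor was lower with sulforaphane, and on that scale miR-520d-5p passed one floor and would not have passed the other. Without normalization the 758 units of miR-520d-5p exceeded the vehicle floor of 717.6 units, a bound of at least 1.06-fold higher. Also without normalization, the median log2 ratio of human miRNAs detected on both arrays was 0.54. That shift between the arrays is larger than the bound, so the bound does not set miR-520d-5p apart. Its other arm, miR-520d-3p, read 0.435 with sulforaphane and 0.242 with vehicle, under the floor on both.

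On the sulforaphane array miR-525-5p was the nearest member below the floor. It read 5.44 with sulforaphane (674.5 units), against a floor of 5.52, and 3.26 with vehicle (364 units). The nearest member above the floor on that array was miR-520d-5p at 6.11. On the vehicle array the nearest below was miR-519e-5p at 5.24, and the nearest above was miR-519e-3p at 8.25. The other arm of miR-525, miR-525-3p, read 0.415 with sulforaphane and 0.126 with vehicle. It had the lowest vehicle value of the cluster.

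**Figure D1:**
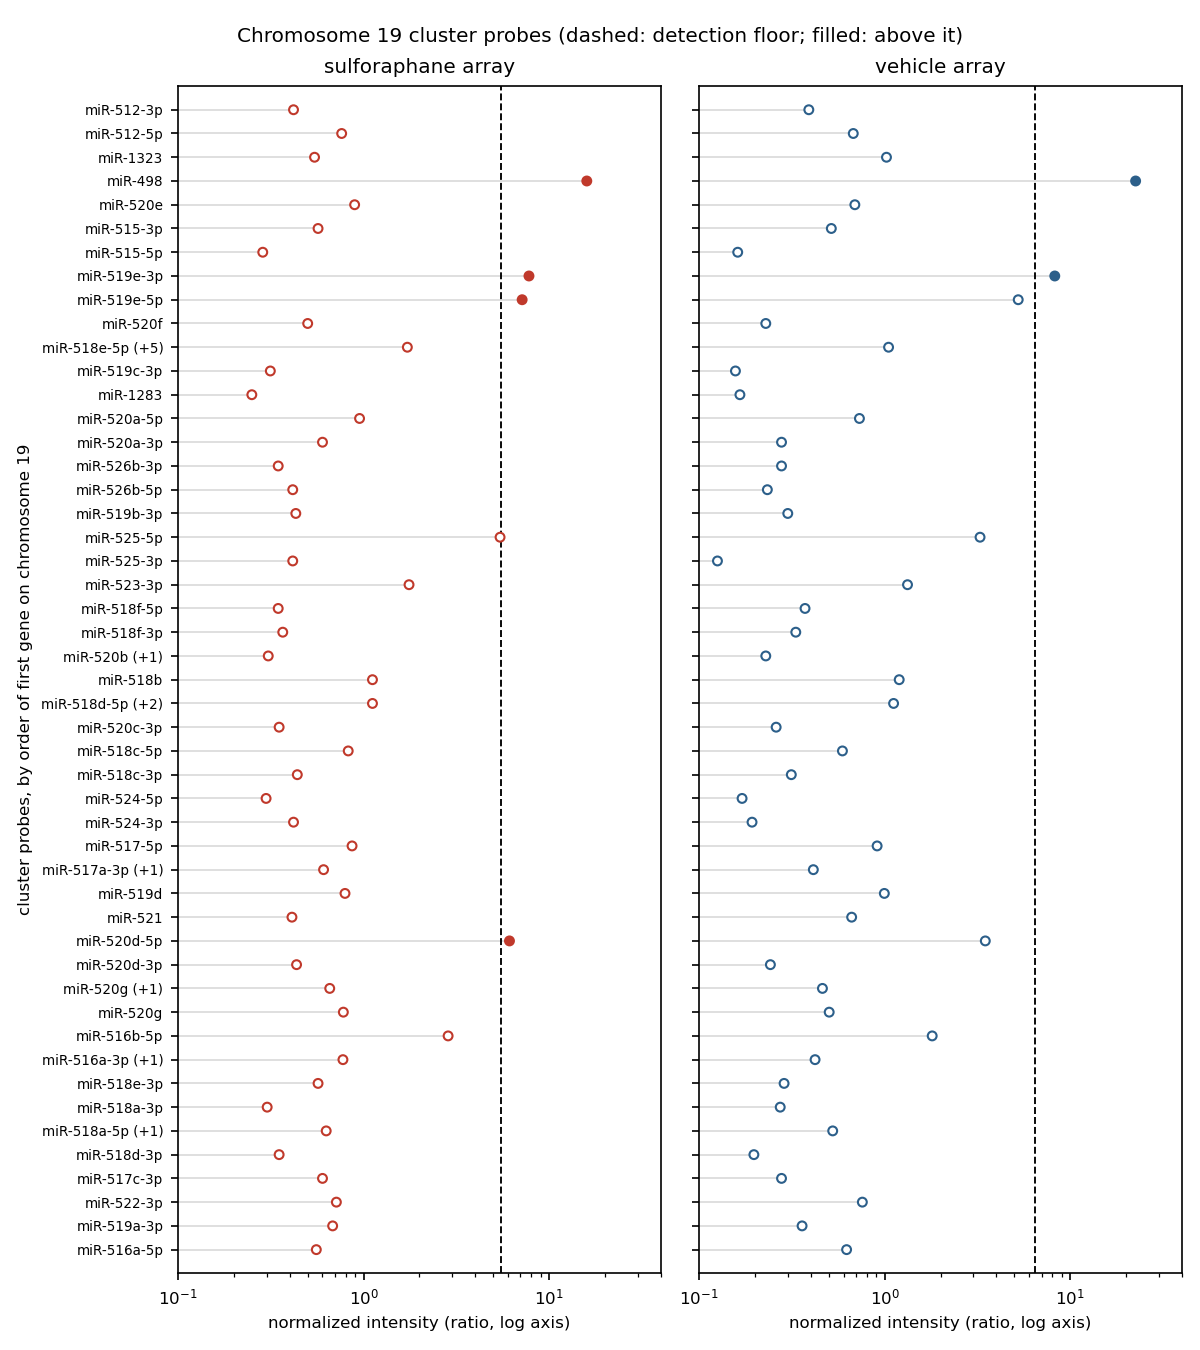
Normalized intensity (a ratio, log axis) of the 49 cluster probes in the order of their first gene on chromosome 19, on the sulforaphane array (left) and the vehicle array (right). Dashed lines mark the floors of 5.52 and 6.44, filled points exceed them, and a number in brackets counts further miRNAs named on the same probe. Filled points are 4 with sulforaphane and 2 with vehicle, and apart from the arms of miR-519e they are not next to each other.

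The detected shares were read against those of all human miRNA probes. With sulforaphane 8.16% of the cluster probes were detected, beside 16.7% of the 1273 human probes. With vehicle the shares were 4.08% of the cluster and 14.3% of the human probes, and on both arrays 4.08% and 13.2%. The floor itself leaves 8 of the 143 viral probes (5.59%) above it on each array by construction. The share of cluster probes above the floor lay on either side of that, higher with sulforaphane and lower with vehicle. With 1 array per group these shares have no error between cultures.

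The levels of the cluster as a whole lay near those of the viral probes, whose targets are not expected in H460 cells. The median normalized intensity of the 49 probes was 0.601 with sulforaphane and 0.422 with vehicle. The viral probes had medians of 0.609 and 0.628, and the 1224 human probes outside the cluster had medians of 0.821 and 0.794. In background-subtracted units the cluster median was 74.5 with sulforaphane and 47 with vehicle, of the order of the local background around the same spots (medians of 59.5 and 41 units). Under the median viral probe lay 26 of the 49 members with sulforaphane and 31 with vehicle, and 38 read under 1 on both arrays. Low values were not particular to the cluster, since the median of all 1273 human probes was also under 1 (0.798 with sulforaphane and 0.762 with vehicle). For cluster members in this range a level is not measurable at this signal, which is not a statement that the miRNA is absent.

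**Figure D2:**
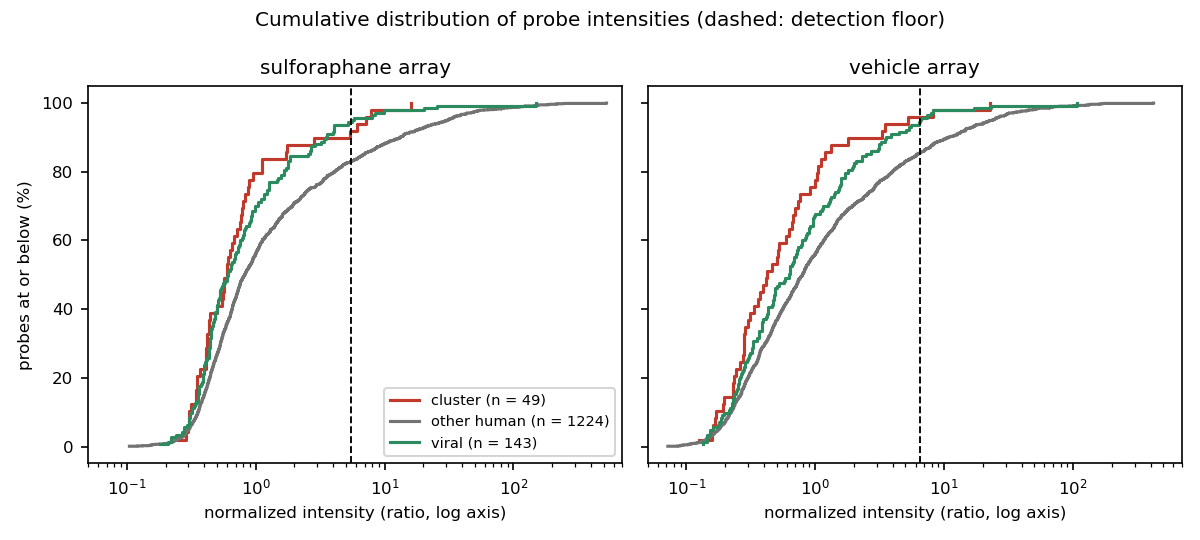
Cumulative share of probes (%) at or below each normalized intensity (a ratio, log axis) for the 49 cluster probes, the 1224 other human miRNA probes and the 143 viral probes, with sulforaphane (left) and vehicle (right). The cluster curve reaches its middle at 0.601 and 0.422, close to or left of the viral curve (0.609 and 0.628), and crosses the dashed floor with 4 and 2 probes to its right.

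Among the 45 members under both floors, the highest after miR-525-5p were miR-516b-5p (2.85 with sulforaphane and 1.80 with vehicle) and miR-523-3p (1.76 and 1.33). They were followed by a probe shared by miR-518e-5p, miR-519a-5p, miR-519b-5p, miR-519c-5p, miR-522-5p and miR-523-5p (1.72 and 1.05) and by miR-518b (1.12 and 1.20). The lowest by the mean of both arrays were miR-515-5p (0.286 and 0.161), which is known to restrain trophoblast differentiation, and miR-1283 (0.250 and 0.166). Members known best from cancer or placenta were in this range too. miR-520c-3p, which with miR-373 promotes cell migration through loss of CD44, read 0.351 with sulforaphane and 0.260 with vehicle. miR-512-3p, a trophoblast miRNA that represses the apoptosis inhibitor CFLAR, read 0.419 with sulforaphane and 0.390 with vehicle. The probe for miR-517a-3p and miR-517b-3p, used as placental markers in maternal plasma, read 0.609 with sulforaphane and 0.413 with vehicle. The last 3 were named for their known roles and not by level.

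By arm, 2 of 16 probes for 5p arms were detected with sulforaphane and 0 with vehicle. Of 23 probes for 3p arms, 1 was detected on each array. Of the 10 probes with no arm in their name, 1 was detected on each array, miR-498. The shares were 12.5% and 0% for 5p probes and 4.35% on each array for 3p probes. Over all human probes, of any arm, they were 16.7% with sulforaphane and 14.3% with vehicle. The median normalized intensity was 0.847 with sulforaphane and 0.704 with vehicle for 5p probes, and 0.435 and 0.287 for 3p probes. Neither shares nor medians by arm were taken over all human probes, so whether an arm difference is particular to the cluster is unknown. Over the 35 probes that name 1 miRNA with a RefSeq sequence, the Spearman correlation of GC content with log2 intensity was 0.15 with sulforaphane and 0.09 with vehicle. These are descriptions across probes of 1 array each, and many of these miRNAs are copies of one another.

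The 50 miRNAs with a sequence fell into 26 seeds, of which 11 were shared by at least 2 miRNAs. The 9 names without one, among them miR-518f-3p, miR-519d, miR-520b and miR-520e, were given no seed, so a group may have further members. The largest group, with seed UCUAGAG, held 10 of the 5p arms on 3 probes, and none of the 3 was detected. None of the probes for the groups AAAGCGC (4 miRNAs, miR-518 3p arms and miR-518b), AAGUGCA (3 miRNAs, the 3p arms of miR-519a, miR-519b and miR-519c), AAGUGCU (3 miRNAs, the 3p arms of miR-520a, miR-520c and miR-520d) and UCGUGCA (3 miRNAs, the 3p arms of miR-517) was detected either. The highest probe of each by the mean of both arrays was miR-518b, miR-519a-3p (0.681 and 0.359), miR-520a-3p (0.601 and 0.278) and the probe for miR-517a-3p and miR-517b-3p. In the 2 smaller groups without a detected or nearly detected member, the highest were miR-524-3p (0.419 with sulforaphane and 0.193 with vehicle) and the probe for miR-516a-3p and miR-516b-3p (0.774 and 0.422).

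For 3 of the 4 detected members, RefSeq gave a partner with the same seed within the cluster, and each partner was under the floor on both arrays. The probe name of miR-498 has no exact match in RefSeq, so it was placed in no seed group. miR-520d-5p and miR-524-5p share the seed UACAAAG and have the same base at 19 of the 20 positions compared from the 5′ end, with the difference A15C (the base of miR-524-5p first). miR-524-5p is 2 bases longer. It read 0.298 with sulforaphane and 0.170 with vehicle. miR-519e-5p and miR-515-5p share UCUCCAA and 20 of 22 positions, with the differences A12G and A13G (the base of miR-515-5p first), and miR-515-5p read 0.286 and 0.161 as given above.

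miR-519e-3p and miR-515-3p share AGUGCCU and 18 of 22 positions. miR-515-3p read 0.569 with sulforaphane and 0.516 with vehicle. miR-525-5p, just under the floor, and miR-520a-5p share UCCAGAG and 19 of 21 positions, with A12U and U14C (the base of miR-520a-5p first), and miR-520a-5p read 0.952 with sulforaphane and 0.731 with vehicle. Signal above the floor was thus not shared within these seed groups. The files hold no probe sequences and probes differ in affinity, so levels of different miRNAs are set against the floor and not against each other.

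Both miR-520g and miR-520c-3p were named on 2 probes each. miR-520g read 0.778 with sulforaphane and 0.502 with vehicle on its own probe, and 0.657 and 0.462 on the probe it shares with miR-520h. miR-520c-3p read 0.351 with sulforaphane and 0.260 with vehicle on its own probe, and 0.306 and 0.229 on the probe it shares with miR-520b. All of these probes lay under the floor on both arrays, where no level is measurable.

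**Figure D3:**
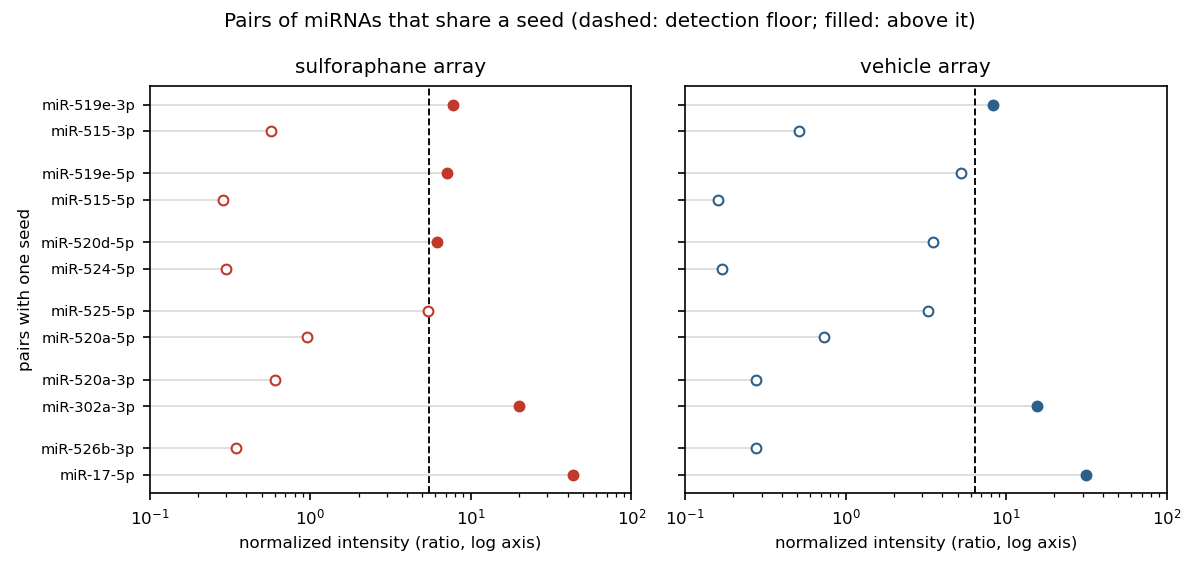
Normalized intensity (a ratio, log axis) of 6 pairs of miRNAs with one seed each, with sulforaphane (left) and vehicle (right); dashed lines mark the floors, and filled points exceed them. In the upper 3 pairs a cluster member is above a floor and its partner under both, and in the lower 2 pairs the miRNA outside the cluster is above and the cluster member is below.

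The AAGUGC core also occurs outside the cluster, and relatives elsewhere in the genome were detected. miR-520a-3p and miR-302a-3p, an embryonic stem cell miRNA on chromosome 4, share the seed AAGUGCU, and miR-526b-3p and miR-17-5p, of the miR-17-92 cluster on chromosome 13, share AAAGUGC. Their sequences show how far the likeness goes beyond the seed.
miR-520a-3p: aAAGUGCUucccuuuggacugu
miR-302a-3p: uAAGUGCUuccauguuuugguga
miR-526b-3p: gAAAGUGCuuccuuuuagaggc
miR-17-5p: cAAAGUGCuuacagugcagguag

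Of 10 relatives listed outside the cluster, 7 were detected on both arrays, beside 13.2% of all human probes. These were miR-302a-3p (19.9 with sulforaphane and 15.6 with vehicle) and all 6 members of the miR-17 family examined, which repress the cell cycle inhibitor CDKN1A. In that family the values were lowest for miR-20b-5p (20.0 and 13.4) and highest for miR-106b-5p (115 and 72.0). miR-17-5p itself read 43.5 with sulforaphane and 31.5 with vehicle. The others were miR-20a-5p (107 and 66.0), miR-93-5p (72.6 and 43.6) and miR-106a-5p (25.9 and 21.4). miR-302b-3p, miR-302c-3p and miR-302d-3p were under the floor on both arrays, at 0.536 to 0.661 with sulforaphane and 0.305 to 0.404 with vehicle. None of the 7 detected relatives reached 2-fold, and their log2 ratios on the authors' scale ran from 0.28 to 0.74. In the cluster, miR-526b-3p (0.347 with sulforaphane and 0.278 with vehicle) and the 3 miRNAs that RefSeq gave the seed AAGUGCU were under the floor on both. miR-519d, miR-520b and miR-520e had no exact RefSeq name match and so no seed here. Their probes were also under both floors.

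The neighbouring miR-371 to miR-373 cluster, which is active in stem cells and germ cell tumours, was also under the floor. None of its 5 probes was detected on either array, and the highest was miR-371a-3p (1.01 with sulforaphane and 1.59 with vehicle). Over all human probes 16.7% were detected with sulforaphane and 14.3% with vehicle, so 0 among 5 lies near that share. miR-373-3p read 0.528 with sulforaphane and 0.166 with vehicle, and miR-372 read 0.754 and 1.04. The 5p arms miR-371a-5p (0.556 and 0.632) and miR-373-5p (0.766 and 0.883) lay in the same range.

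Between the arrays, neither of the 2 cluster miRNAs detected on both differed by 2-fold. Of the 168 human miRNAs detected on both, 3.57% passed the 2-fold rule upward with sulforaphane and 1.19% passed it downward. Both cluster miRNAs had ratios below 0, as had 29 of the 168. The median log2 ratio of the 168 was 0.38, so miR-498 lay 0.88 below it (-0.88) and miR-519e-3p 0.47 below it (-0.47). Of the 168, 6 had a lower ratio than miR-498 and 22 a lower ratio than miR-519e-3p. The SD of the log2 ratios of 41 spike-in probes above both floors was 0.20, a spread between probes that holds none of the variation between cultures.

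The scale moved these values. miR-498 had a log2 ratio below 0 under each of the 7 other scalings or transforms tried, from -1.17 when the arrays were scaled to the spike-in probes to -0.34 without normalization, and it passed the 2-fold rule under spike-in scaling alone. Under that scaling the 2-fold rule was passed downward by 5.36% of the 168 miRNAs. miR-519e-3p had a log2 ratio from -0.76 to 0.070, with a value above 0 without normalization alone. Both lay below the median ratio of detected miRNAs under all 7. That distance cannot change where each array is scaled by 1 factor, so those scalings are no further check of it. It could change under quantile normalization, under cyclic loess and with the floor added. There it was -0.81, -0.85 and -0.65 for miR-498, and -0.29, -0.36 and -0.36 for miR-519e-3p.

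**Figure D4:**
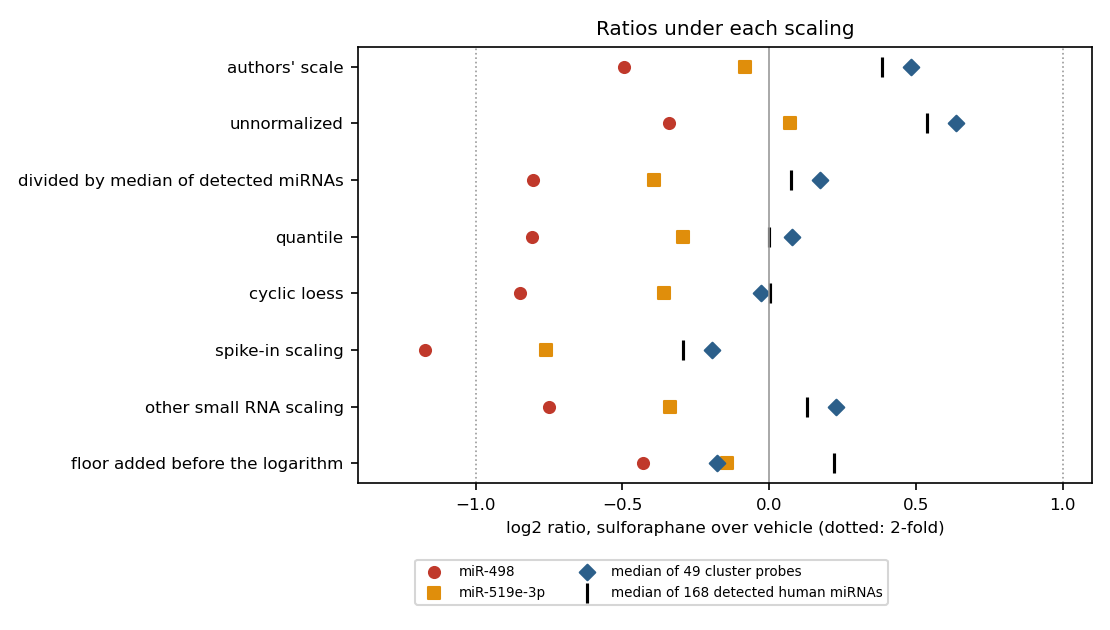
Log2 ratio, sulforaphane over vehicle, of miR-498 and miR-519e-3p, with the median of the 49 cluster probes and of the 168 detected human miRNAs, under the authors' scale and 7 others (rows). miR-498 runs from -1.17 to -0.34 and lies left of the detected median in every row, and miR-519e-3p is right of 0 without normalization alone. In rows that apply 1 factor per array the distance to that median is fixed.

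The ratio of the normalized values was also taken for all 49 members, as a description, since a ratio of values under the floor is not a measured fold. The median log2 ratio was 0.48 (quartiles 0.14 and 0.83) on the authors' scale and below 0 under cyclic loess, under spike-in scaling and with the floor added. On the authors' scale 39 of 49 values (79.6%) were above 0. Over all 1273 human probes the median was 0.37 (quartiles -0.02 and 0.70) with 74.1% above 0. Of the cluster probes 12.2% had a ratio of 2 or more, and 10.4% of the human probes did. All 6 such members lay under both floors, among them miR-525-3p, with 51.5 background-subtracted units for sulforaphane and 14 for vehicle. No member had a ratio of 0.5 or less, and 63 of the 1273 human probes did. The lowest ratio in the cluster was that of miR-1323, which read 0.544 with sulforaphane and 1.02 with vehicle.

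These ratios differed between classes of intensity. For the 22 cluster probes with a mean normalized intensity under 0.5 the median log2 ratio was 0.82, and for the 17 between 0.5 and 1 it was 0.26. The human probes outside the cluster had medians of 0.66 and 0.24 in these classes, and the viral probes 0.58 and 0.05. For the 6 cluster probes with a mean of 1 or more and under both floors the median was 0.53, beside 0.14 for the other human probes of that class and -0.02 for the viral probes. The local background was higher on the sulforaphane array around each of the 2661 probes, the 49 members included. The part of background and intensity in these ratios was not tested.

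**Figure D5:**
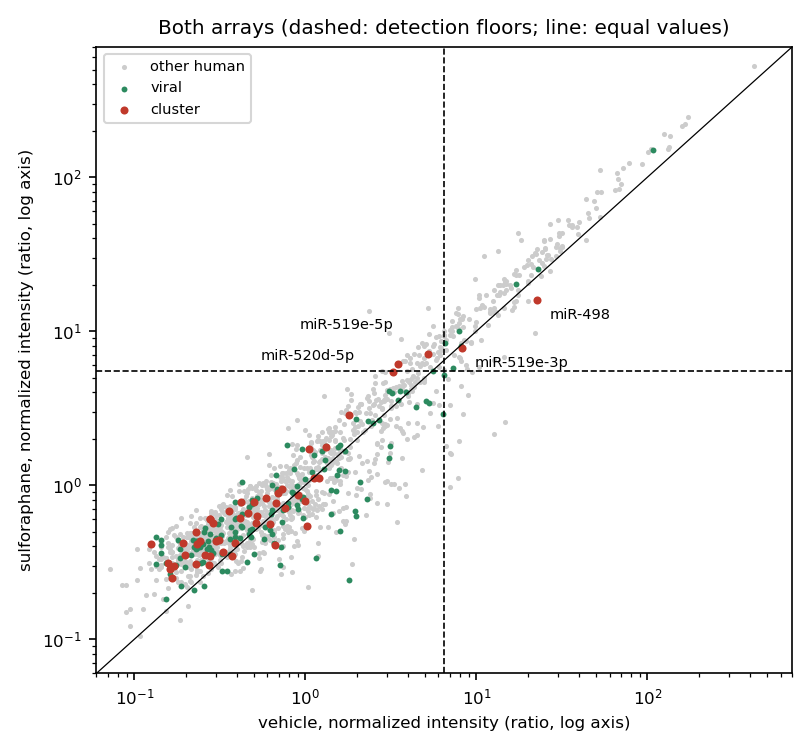
Normalized intensity (a ratio, log axes) on the sulforaphane array against the vehicle array for cluster, other human and viral probes, with the floors dashed and a line of equal values. Most cluster probes sit in the dim cloud with the viral probes, 2 lie beyond both floors under the line, and miR-519e-5p and miR-520d-5p lie beyond the sulforaphane floor alone.

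The labelled cell type was checked against marker miRNAs. miR-21-5p (122 with sulforaphane and 93.5 with vehicle) and miR-31-5p (22.7 and 23.7), both common in carcinoma lines, were detected on both arrays. None of 6 listed epithelial miRNAs, the miR-200 family with miR-141-3p and miR-205-5p, was detected on either array. That list left out miR-205-3p, the other arm of the miR-205 hairpin, which was detected on both arrays. The other arms of miR-200a, miR-200b, miR-200c and miR-141, also outside the list, were under the floor on both arrays. None of 6 blood and immune miRNAs was detected either, and their summed normalized intensity was 5.38 with sulforaphane and 4.60 with vehicle. Of 4 muscle miRNAs, 0 were detected with sulforaphane and 1 with vehicle, miR-206 (1.80 and 6.61). Over all human probes 16.7% were detected with sulforaphane and 14.3% with vehicle. Counts at or near 0 in lists this short therefore say little about the cell type.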

How the data were processed

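Total RNA from H460 cells was labelled with Hy3 and hybridised to 1 miRCURY LNA array per group, per the labels' protocols. The labels name no scanner, software or background method. The deposited workbook holds, per the file headers, the foreground intensity, the background-subtracted intensity, a normalized value and a fold change for each probe. The authors' normalized value is a ratio: the background-subtracted intensity divided by 124 on the sulforaphane array and by 111.5 on the vehicle array, for all 2661 probes with values. The authors' deposited fold change equals the ratio of the normalized values, and the series value table matches them within 4.89e-08.

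From these values the detection floor, log2 ratios (sulforaphane over vehicle, nothing added) and the 2-fold rule were computed with Python 3.11.15, numpy 2.4.6 and pandas 2.3.3, and quantile and cyclic loess normalization with limma 3.58.1 in R 4.3.3. The log2 ratios and the quantile and cyclic loess normalization were tested on simulated data with known changes. The check was the median error over all human probes, most of them unchanged. The other scalings and the counts of detected probes were not tested in this way. Named members were those above a floor with their other arms, the 5 next highest and 2 lowest, the highest of each shared seed and the extreme ratios, with the relatives and markers listed. Members and lists were chosen with earlier results of these data known. Alternatives were other floors, 6 other scalings, adding the floor to every value before taking logarithms, a 1.5-fold rule and leaving out probes that name several miRNAs. A floor at the highest of 7 negative control probes was added after the data had been seen. Sequences and gene order are from RefSeq.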

Additional observations from a re-analysis of the deposited data

How the results depend on the processing

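The counts of detected members rest on the floor. On the sulforaphane array, the vehicle array and both, the counts of 4, 2 and 2 became 0, 1 and 0 at the 99th percentile of viral probes, 14, 13 and 11 at the median of all probes, and 8, 5 and 5 at the highest negative control probe, a floor chosen after seeing the data. Over all human probes the counts were 212, 182 and 168 at the original floor, then 77, 71 and 67 at the 99th percentile, 626, 632 and 556 at the median of all probes and 429, 353 and 329 at the highest negative control. With the 90th percentile the cluster counts were 5, 3 and 3 (human probes 271, 268 and 238), and without probes of several names or on foreground intensities they were 4, 2 and 2. The median log2 ratio of the 49 probes (0.48) was -0.028 under cyclic loess, -0.19 under spike-in scaling and -0.18 with the floor added. It was 0.17 after division by the median of detected miRNAs, 0.078 under quantile normalization, 0.23 under small RNA scaling and 0.18 over the 4 probes above a floor. The cause of these shifts was not tested, apart from the single factor that the linear scalings apply. The ratio of miR-519e-3p was 0.070 without normalization. Under spike-in scaling 1 cluster miRNA, miR-498, was at least 2-fold lower, against 0 otherwise, and so were 9 of the 168 detected human miRNAs, against 2 on the authors' scale. No paired analysis was possible because each group has 1 array. Signal limits most of the cluster, since 45 members lay under both floors.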

Other observations

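The 7 probes named as negative controls read at most 1.49 with sulforaphane and 2.19 with vehicle, under the viral floors of 5.52 and 6.44. Between the negative controls and the viral floor on the sulforaphane array lay 4 further cluster probes, miR-525-5p, miR-516b-5p, miR-523-3p and the probe shared by miR-518e-5p and 5 other 5p arms. On the vehicle array miR-519e-5p, miR-520d-5p and miR-525-5p lay in that range. These members were named from their values. Their vehicle values were 5.24 for miR-519e-5p, 3.48 for miR-520d-5p and 3.26 for miR-525-5p, all over the highest negative control. On that lower floor, chosen after seeing the data, miR-519e-5p, miR-520d-5p and miR-525-5p were detected on both arrays. So were 5 of the 49 cluster probes in all and 329 of the 1273 human probes. On the authors' scale the log2 ratios of the 3 were 0.45, 0.81 and 0.74, and none reached 2-fold. The median for human miRNAs above both viral floors was 0.38 on that scale. Under spike-in scaling the ratio of miR-519e-5p was -0.23.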
